A study of Mus musculus with 3 samples.

Results

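The ribosomal protein genes of the mouse were described here in Ago2 HITS‑clip data from N2A cells, with the members taken by symbol from the GENCODE M21 annotation. Protein-coding genes whose symbol starts with Rpl or Rps and a digit, together with Rplp0, Rplp1, Rplp2 and Rpsa, were kept, and the Rps6k kinases, the binding-protein genes ending in bp1 and the pseudogenes were left out. This gave 85 genes of the 21853 protein-coding genes examined, of which 52 encode proteins of the large subunit and 33 of the small subunit, and 8 of them are paralogues or like genes (Rpl3l, Rpl7l1, Rpl10l, Rpl22l1, Rpl36al, Rpl39l, Rps27l and Rps27rt). All libraries came from the mouse neuroblastoma line N2A, left untreated, crosslinked with ultraviolet light and precipitated with the Wako 2D4 antibody against Ago2. The design held 1 group of 3 libraries, called replicates 1, 2 and 3, and no input, control antibody or treated sample was analysed here. The labels do not say whether the libraries came from separate cultures, so the spread between them may be technical.

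Ribosomal proteins assemble with ribosomal RNA into the large and small subunits of the ribosome, and their mRNAs are among the most abundant and heavily translated messages of a dividing cell. Many of these mRNAs start with a run of pyrimidines, the 5′ terminal oligopyrimidine tract, through which mTOR signalling sets their translation. Their introns host small nucleolar RNAs (snoRNAs), which are cut out of the excised intron: those with C and D boxes guide methylation of ribosomal RNA, and those with H and ACA boxes guide pseudouridylation. Ribosomal protein mRNAs were also copied back into the genome many times, and the resulting processed pseudogenes resemble the coding sequence closely. Ago2 holds a microRNA and pairs its seed with target sites, usually in the 3′UTR, and HITS‑clip sequences the RNA fragments that can be crosslinked to it.

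The deposited table held 711377, 498071 and 829936 peaks in replicates 1, 2 and 3. A peak is a stretch of the genome on 1 strand; the table gave no read number for it, so the sequencing depth is unknown, and coverage below means the percent of a length that lies under at least 1 peak on the gene's own strand. Because RNA levels were not measured, more Ago2 on a transcript and more of the transcript cannot be told apart. With 3 libraries of a single group the smallest exact two-sided p is 0.25, so values are given as mean ± SD (n = 3 libraries) with no test. As a check of the label, 8 of 11 neuroblastoma markers had an exon peak in every library, although Th, the first enzyme of catecholamine synthesis, had none in any. Of 10 markers of other cell types 1 had an exon peak in every library, the leukocyte gene Ptprc.

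Ribosomal protein genes held 210, 200 and 478 same-strand peaks in replicates 1, 2 and 3, or 42.4 ± 14.2 per 100000 peaks of a library. Each peak was placed by its midpoint, after peaks lying over an intronic snoRNA by at least 15 nt had been set apart. Exon peaks numbered 46, 103 and 134 in replicates 1, 2 and 3, and made up 33.8% ± 15.6 of the peaks in these genes. Intron peaks numbered 118, 59 and 291, or 48.9% ± 16.9. Replicate 2 stood apart, since exon peaks were the larger class there and intron peaks the larger class in both other libraries. Peaks over snoRNAs numbered 45, 32 and 48, or 15.8% ± 5.70. The remaining peaks ran across an intron from exon to exon and made up 1.51% ± 1.32. Among exon and intron peaks together, the exon share was 27.9, 61.3 and 31.2% in ribosomal protein genes and 13.4, 41.2 and 23.5% over all protein-coding genes, and it was higher in ribosomal protein genes in 3 of 3 libraries. These are shares of peak numbers and take no account of the lengths of exons and introns. By percent of length covered, given below, exons of ribosomal protein genes lay below those of all genes in every library. Their introns lay above those of all genes in replicates 1 and 3. When exons of all transcripts were used in place of the main definition, exon peaks made up 54.2% and intron peaks 29.1%.

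**Figure D1:**
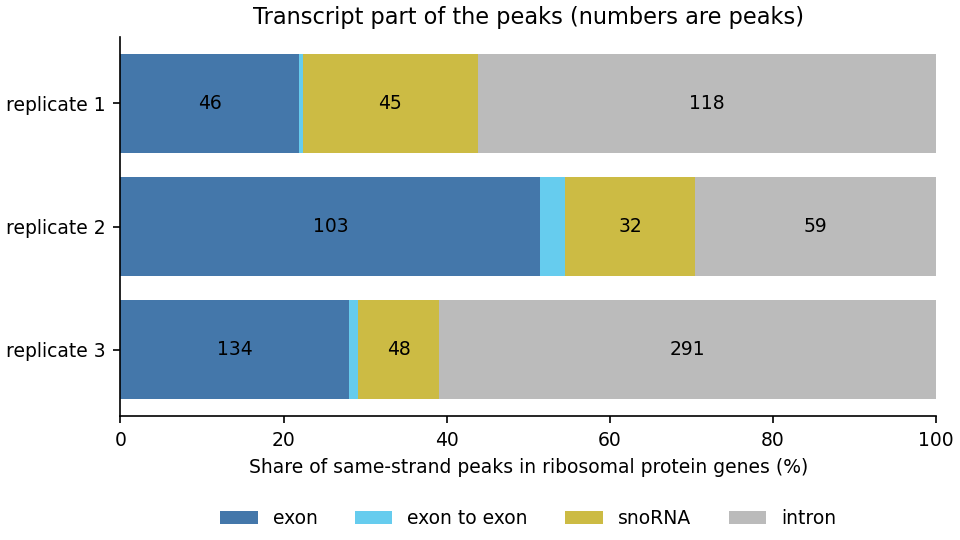
Share of same-strand peaks in ribosomal protein genes, in percent, by transcript part, for each of the 3 libraries. Exon peaks are the larger class in replicate 2 (51.5%) and intron peaks in replicates 1 (56.2%) and 3 (60.9%).

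An exon peak was present in 27, 36 and 48 of the 85 genes in replicates 1, 2 and 3, or 31.8, 42.4 and 56.5%, against 48.8, 53.1 and 57.7% of all protein-coding genes, so that replicate 3 was near the background. It was present in all 3 libraries in 16 genes (18.8%), against 34.3% of all protein-coding genes. These are 10 large-subunit genes (Rpl7, Rpl7l1, Rpl8, Rpl13a, Rpl15, Rpl21, Rpl22, Rpl23, Rpl34 and Rplp0) and 6 small-subunit genes (Rps3, Rps9, Rps15a, Rps19, Rps20 and Rps27l). Ribosomal protein mRNAs are short, with a median exonic length of 1009 nt against 2858 nt over all genes. Among the 7197 genes with an exonic length of 558 to 2171 nt, 13.0% had an exon peak in every library. A further 18 ribosomal protein genes had one in 2 libraries, 27 in 1 library and 24 in none. The share with an exon peak in at least 1 library was 71.8%, close to the 72.3% of all protein-coding genes. Without replicate 1 the count in every library was 29, and with peaks of 86 to 200 nt alone it was 7. The share of all protein-coding genes under these settings is not given, so these changes cannot be set against a background.

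Peaks covered 5.15, 9.17 and 13.2% of the exonic length of ribosomal protein genes in replicates 1, 2 and 3, a mean of 9.17% ± 4.01. The corresponding values over all protein-coding genes were 5.94, 13.7 and 14.5%, and the ratio between the groups was 0.816 ± 0.128, below 1 in 3 of 3 libraries. This did not hold with exons of all transcripts, where the ratio was 1.00 ± 0.222, or with all genes held to positions whose sequence occurs once, where it was 0.979 ± 0.147. The genes of like length had 7.42% ± 2.81. Large-subunit genes (9.34% ± 4.38) and small-subunit genes (8.90% ± 3.46) differed by less than the spread between libraries. Across the 85 genes, the ranks of exonic coverage correlated between pairs of libraries with rho of 0.26, 0.27 and 0.47, and over all genes with 0.52, 0.53 and 0.70. Pearson's r ran the other way, with 0.57, 0.54 and 0.73 in ribosomal protein genes and 0.33, 0.32 and 0.68 over all genes; the genes of a pair share the depth of its libraries, and these values are descriptions.

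**Figure D2:**
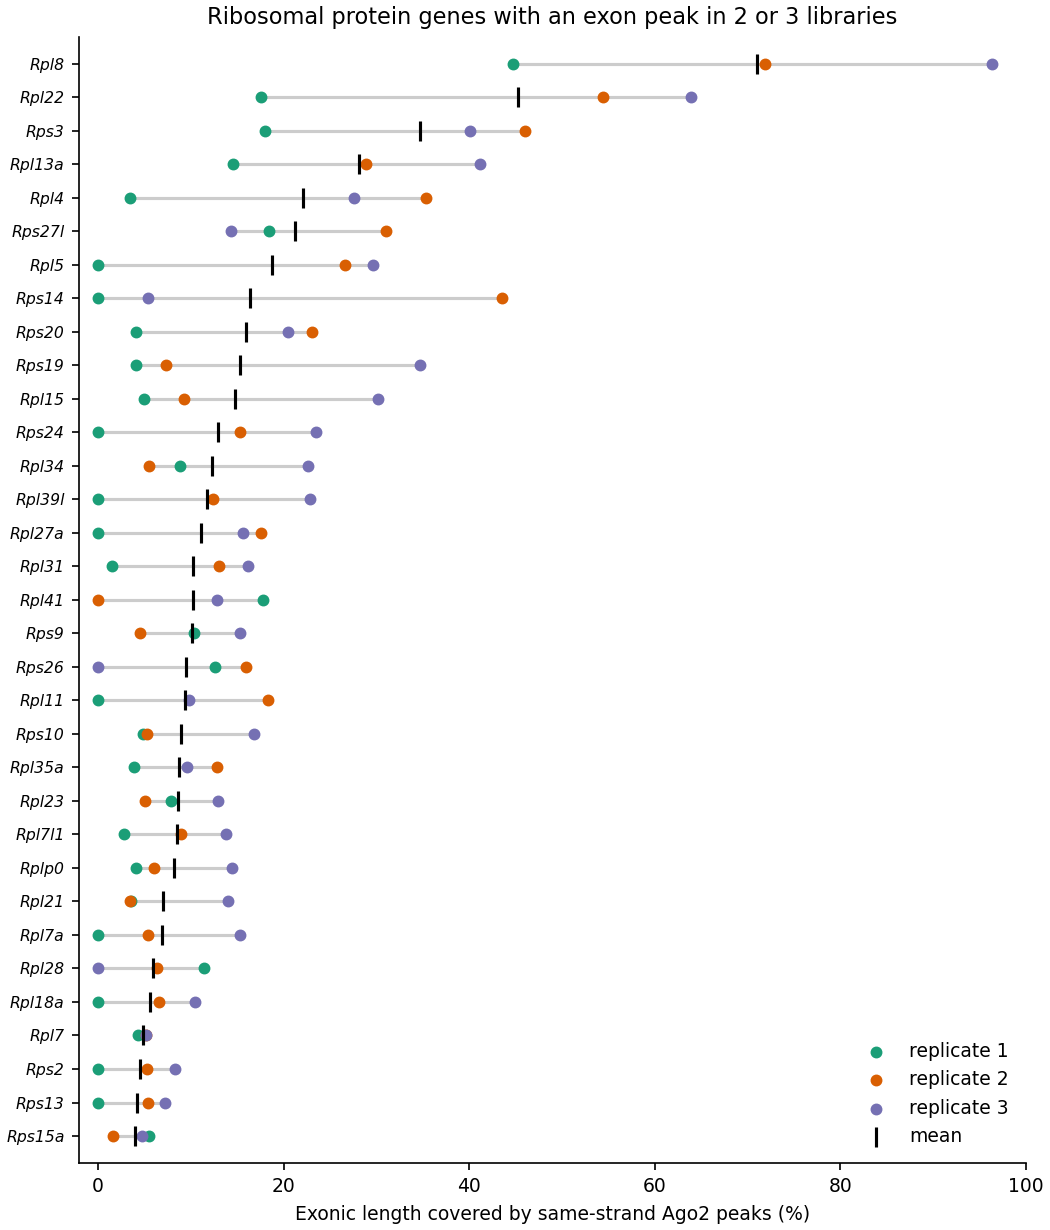
Percent of exonic length under a same-strand peak, for 33 of the genes with an exon peak in 2 or 3 libraries, with a point for each library and a bar at the mean. Rpl8 lies highest, at 44.7 to 96.4%.

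Rpl8 had the highest coverage of the ribosomal protein genes and ranked 10 of 21853 by mean coverage. It encodes the large-subunit protein next to the peptidyl transferase centre, and lies at chr15:76904078-76906314 on the plus strand of GRCm38 (mm10). Its exons were covered to 44.7, 71.8 and 96.4% in replicates 1, 2 and 3, a mean of 71.0% ± 25.8. Replicate 3 was highest and replicate 1 lowest. Its coding sequence was covered to 52.1, 87.3 and 95.1%, and its short 3′UTR of 38 nt was covered whole in every library. Its introns were covered too, to 16.6, 97.4 and 85.7%, so that exon and intron stood out together in replicates 2 and 3.

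Rps3, a protein of the mRNA entry site (chr7:99477896-99483738, minus strand), had 18.03, 46.02 and 40.04% of its exons covered. Its coding sequence led over its 3′UTR of 1062 nt in replicate 1, at 46.4% against 0.565%, and in replicate 2, at 67.8% against 36.2%. In replicate 3 the coding sequence had 24.1% and the 3′UTR 44.4%.

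A coding stretch covered in all 3 libraries is given for Rpl8 and Rps3, because these are positions on which the libraries coincide. Each is the sense strand, from the GRCm38 genome, in lower case throughout.
Rpl8 chr15:76904539-76904680: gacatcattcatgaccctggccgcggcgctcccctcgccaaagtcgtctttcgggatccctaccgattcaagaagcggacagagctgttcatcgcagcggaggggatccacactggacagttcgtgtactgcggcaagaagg
Rps3 chr7:99479976-99480059: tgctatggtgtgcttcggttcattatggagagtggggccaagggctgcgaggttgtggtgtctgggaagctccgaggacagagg
The Rpl8 stretch is 142 nt long and that of Rps3 84 nt. In all, 16 exonic stretches of at least 8 nt were covered in every library, in 7 genes (among them Rpl8, Rpl13a, Rpl22, Rps3, Rps9 and Rps10), or 8.24% of ribosomal protein genes. The background was 18.4% of all protein-coding genes and 6.68% of those of like length. Of the 16 stretches 10 lay in coding sequence and 6 in 3′UTRs.

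Like Rpl8, Rpl22 and Rps3, most genes below them differed strongly between libraries. Rpl4 had 3.45, 35.3 and 27.6% of its exons covered, and Rpl5, which binds 5S RNA, had 0, 26.7 and 29.6%. Rps20 had 4.16, 23.1 and 20.5%, so that replicate 1 was the lowest library in all of these. Rps19, the gene most often mutated in Diamond-Blackfan anaemia, had 4.05, 7.29 and 34.7%. Here replicate 3 stood above the other libraries. Rpl41, which encodes a very short peptide, ran the other way, with 17.8, 0 and 12.8%, and Rpsa, also known as the laminin receptor, had 11.6, 0 and 3.53%. Replicate 2 was lowest in both. No peak of Rpsa was classed as an exon peak in replicate 1, so its exonic coverage there came from peaks of another class or centred outside the gene. The large-subunit genes Rpl34 (8.81, 5.47 and 22.6%) and Rpl23 (7.93, 5.04 and 13.0%) and the small-subunit gene Rps10 (4.87, 5.29 and 16.8%) had lower values that were above 0 in every library, with replicate 3 highest.

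The sequence of these genes limits where a read can be placed. For every exonic position, the 30-nt window around it was counted in the genome, and the position was called unique when the window occurred once. The shares of unique windows below come from windows of the selected spliced transcript of each gene, also counted in the genome. Such a window was called unique when it had no genomic copy beyond its own locus. A window across an exon junction was thus unique when the genome held no copy. Copies in other spliced transcripts were not counted. The median ribosomal protein gene had 41.1% unique windows, against 98.4% over all genes, and in coding sequence 3.49% against 98.3%. In 33 of the 85 genes no coding window was unique. The number of annotated pseudogenes sharing a coding window had a median of 14 per gene and ran from 0 for Rpl3l to 165 for Rpl7a. How the submitters' alignment treated reads with several matches is not given in the sources used here.

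A window from the middle of the longest coding exon is shown for 3 genes, to set a unique coding window beside repeated ones; all are sense strand, GRCm38.
Rpl8 chr15:76904912-76904941: gctggcccgagcctccgggaactacgccac
Rps6 chr4:86854815-86854844: aggaggaggctgcagaatacgctaaacttt
Rpl3 chr15:80082471-80082500: tgaagagcttccctaaggatgacgcttcca
The window of Rpl8 occurred 1 time, that of Rps6 10 times and that of Rpl3 8 times. Rps6, the small-subunit protein phosphorylated downstream of mTOR, was covered to 0% in every library and had 5.18% unique windows. Rpl3, a core large-subunit protein, was covered to 2.76, 0 and 0.899%, with 6.51% unique windows.

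Coverage was lowest in the genes with the fewest unique windows. In the 27 genes with under 25% unique windows, mean coverage was 3.46% ± 2.73 and no gene had an exon peak in every library, against 1.58% of the other genes of that class. In the 27 genes with 25 to 50% it was 8.14% ± 5.51, and in the 22 with 50 to 75% it was 8.42% ± 4.55. In the 9 genes with 75% or more it was 17.8% ± 5.35, and 5 of these (55.6%) had an exon peak in every library, against 38.8% of the other genes of that class. Over the same classes, coverage of other protein-coding genes ran from 0.85% ± 0.20 to 12.2% ± 5.09. Within a class, over all exonic positions, coverage of ribosomal protein genes was above that of the other genes in 3 of 3 libraries. The exception was the class of 50 to 75%, where replicate 1 had 3.18% against 3.83%. At unique positions the comparison is given below for all classes together, and not within a class. Opposite-strand coverage of ribosomal protein genes was also above that of the other genes in some classes. With under 25% unique windows it was 1.34, 1.19 and 7.26% against 0.456, 0.485 and 0.446%, above in 3 of 3 libraries, and in replicate 3 it was above their same-strand coverage of 6.61%. With 25 to 50% it was 0.75, 5.97 and 13.3% against 0.97, 2.30 and 1.20%, and in replicate 2 it was above their same-strand coverage of 4.95%. In replicate 1 of that class it was below the other genes. The value of 13.3% in replicate 3 includes single peaks of over 1000 nt that spanned 77.0% of the exons of Rplp0, 68.0% of those of Rpl15 and 45.1% of those of Rps19. Across the 85 genes the share of unique windows and mean coverage had r of 0.52 and rho of 0.44, against 0.24 and 0.20 over all protein-coding genes, a description over genes that share their libraries. Exonic length moved with both: it had rho of 0.34 with mean coverage in ribosomal protein genes, and its median was 780 nt in the class with under 25% unique windows and 1908 nt in that with 75% or more. When only unique positions of ribosomal protein genes were counted, their coverage was 11.9% ± 5.63. Its ratio to the unmasked coverage of all genes was 1.04 ± 0.158. With all genes held to unique positions the ratio was 0.979 ± 0.147, at 0.98, 0.83 and 1.13 in replicates 1, 2 and 3, so that the libraries differed in direction. The parts of repeated sequence and of length in the exon counts were not tested.

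**Figure D3:**
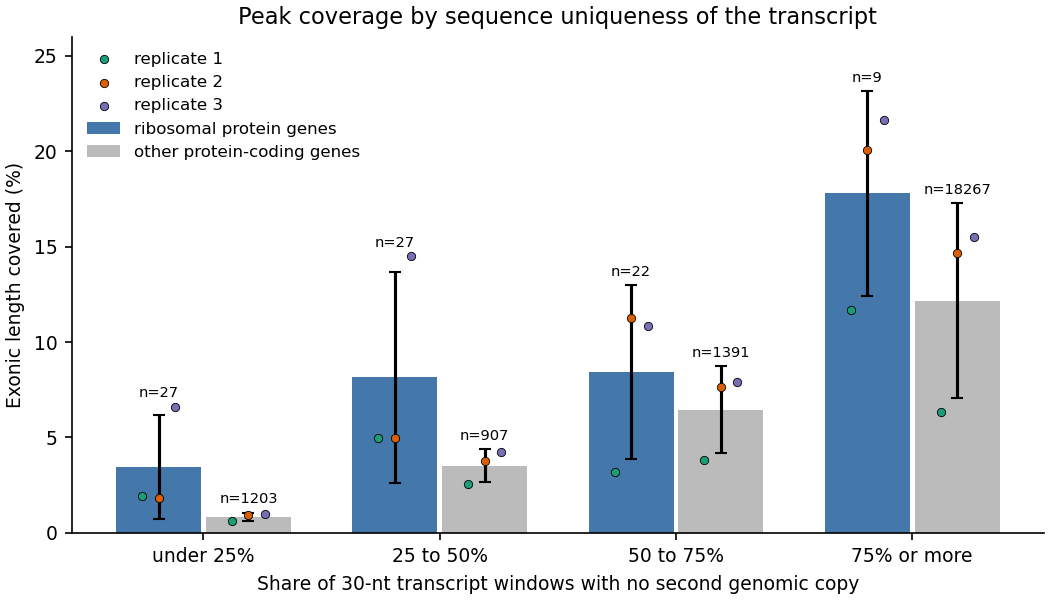
Percent of exonic length under a same-strand peak by share of unique 30-nt windows, for ribosomal protein genes and other protein-coding genes, as bars at the mean with the SD over 3 libraries, a point for each library and the number of genes above. Coverage of ribosomal protein genes runs from 3.46% in the class with the fewest unique windows to 17.8% in that with the most.

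Some paralogues differ in how far their sequence is repeated. Rpl3l, the muscle form of Rpl3, has 98.7% unique windows and had 26.8, 4.75 and 0% of its exons covered, with replicate 1 far above the others; no peak was centred within the gene in that library, so its coverage there came from a peak centred outside it. Rps27 had 0% in every library at 0.317% unique windows, whereas Rps27l had 18.4, 31.0 and 14.3%. Rpl22l1 had 2.50, 2.50 and 12.5%, below Rpl22 in every library. Rpl7 had 4.31, 5.18 and 5.18% and Rpl7l1 2.79, 8.999 and 13.8%, so that their order turned between libraries. Rpl36a and Rpl36al were at 0 in all libraries.

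The 24 genes without an exon peak in any library had a median exonic length of 841 nt and a median of 19.0% unique windows. The 16 genes with an exon peak in every library had medians of 1914 nt and 57.7%. Short genes without one were Rps27rt (374 nt), Rpl36 (383 nt), Rps29 (390 nt) and Rpl36a (483 nt). Among the stalk proteins, which bind elongation factors, Rplp0 had 4.09, 6.04 and 14.4% of its exons covered, Rplp1 had 0, 20.6 and 0%, and Rplp2 had 0.19, 0 and 0.19%.

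Coding sequence and 3′UTR were covered differently from library to library. In the selected transcript of each gene, coding coverage was 7.10, 8.33 and 8.59%, while 3′UTR coverage was 5.64, 16.5 and 21.6%. Coding sequence therefore led in replicate 1 and 3′UTR in replicates 2 and 3, and the ratio of coding to 3′UTR was 0.720 ± 0.469. Over all genes coding coverage was 10.3% ± 4.12 and 3′UTR coverage 14.4% ± 6.59.

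Rpl22, an RNA-binding protein of the large subunit (chr4:152325742-152334071, plus strand), was covered along its 3′UTR in every library. Its exons were covered to 17.6, 54.4 and 63.9%, and its 3′UTR of 1650 nt to 22%, 59.5% and 79.9%. Its coding sequence was covered in replicate 2 alone, to 37.0%. Rpl13a, which hosts several snoRNAs, had 23.0, 59.1 and 58.3% of its 3′UTR of 391 nt covered. Rpl15 had 6.80, 18.6 and 60.7% of its 1191 nt 3′UTR covered and 0% of its coding sequence in every library. In each of these 3′UTRs replicate 1 was lowest, whereas in the 3′UTR of Rps27l (158 nt; 67.7, 36.7 and 51.3%) it was highest.

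Seed matches were counted for 9 microRNAs (let‑7a‑5p, miR‑9‑5p, miR‑10a‑5p, miR‑15a‑5p, miR‑17‑5p, miR‑19b‑3p, miR‑21a‑5p, miR‑30a‑5p and miR‑92a‑3p), as 7-base matches to microRNA bases 2 to 8 on the transcript strand. None lay in the 16 exonic stretches covered in all libraries. In the 41 3′UTR stretches covered in at least 2 libraries, a wider set chosen after seeing the data, 3 matches were found, which are shown with the match in capitals and below the microRNAs with their seeds in capitals (RefSeq, GRCm38).
Rpl22 chr4:152332544-152332573: tttaactgggcTGCTGCTcctttgtatata
Rpl22 chr4:152333616-152333645: gccacaagttcTGCTGCTgcgcctccgagg
Rplp0 chr5:115563565-115563594: aaaaccgctacTGTTTACtttgtgttggca
miR‑15a‑5p: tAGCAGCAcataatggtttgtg
miR‑30a‑5p: tGTAAACAtcctcgactggaag
The Rpl22 matches are to miR‑15a‑5p and the Rplp0 match is to miR‑30a‑5p. Of 320630 windows of 100 nt in annotated 3′UTRs, 1.64% hold TGCTGCT and 1.03% hold TGTTTAC, and for the other 7 microRNAs the share was 0.445 to 0.952%. The stretches searched held 3266 nt, and whether 3 matches exceed this background was not tested. The letters of the miR‑21a‑5p match, ATAAGCT, are in 0.498% of these windows and were in none of the stretches.

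Peaks over the snoRNAs within these introns were often shared between libraries. There are 57, in 29 of the 85 genes, and a peak lay over 39, 26 and 37 of them in replicates 1, 2 and 3, or 59.6% ± 12.3. A peak was present in every library for 15 (26.3%), against 5.97% of all 1558 annotated snoRNAs. Without replicate 2 it was present in both other libraries for 27, and the share of all snoRNAs is not given for that setting. The share was 15.6% of the 308 snoRNAs in introns of other protein-coding genes, 41.2% of the 34 in introns of the listed translation and ribosome biogenesis genes, and 64.3% of the 28 in listed non-coding hosts. On the opposite strand 4, 2 and 4 of the 57 had a peak and none did in every library. Between ordered pairs of libraries 67.5% ± 11.7 of snoRNA peaks in these genes were shared. The share was 40.9% ± 16 for their exon peaks and 23.4% ± 13.3 for their intron peaks. For exon peaks of all protein-coding genes it was 45.1% ± 17.0. These SDs are over pairs that have libraries in common, and not over separate libraries.

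Box C/D and box H/ACA snoRNAs differed in extent. The 34 C/D snoRNAs, with a median length of 74 nt, were covered to 74.5, 48.3 and 65.9%. The 18 H/ACA snoRNAs, with a median of 132 nt, were covered to 24.2, 22.1 and 48.1%. C/D coverage was the higher in 3 of 3 libraries. The narrowest peak of the table is 79 nt, wider than most C/D snoRNAs, so that a single peak can cover one whole. The whole length was covered, by 1 or more peaks, in 52 of the 69 cases with a peak, against 3 of 27 for H/ACA.

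Sequences are shown for the 4 snoRNAs whose whole length was covered in every library (Gm25091 in replicate 1 by 2 overlapping peaks), all of the C/D kind, and for the H/ACA snoRNA Snora3, which had a peak in every library. Capitals mark the letters TGATGA (C box, the first) and CTGA (D box, the last), or the ACA before the 3′ end. All are given 5′ to 3′ on the strand of the host, from GRCm38.
Snord32a, in Rpl13a, chr7:45127382-45127464: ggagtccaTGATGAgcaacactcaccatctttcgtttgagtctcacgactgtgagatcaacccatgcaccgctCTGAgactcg
Gm25091, in Rpl21, chr5:146834834-146834904: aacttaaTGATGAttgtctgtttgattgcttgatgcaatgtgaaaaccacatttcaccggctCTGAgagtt
Snord4a, in Rpl23a, chr11:78181686-78181756: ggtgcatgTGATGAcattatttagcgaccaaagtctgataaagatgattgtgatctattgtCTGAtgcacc
Gm23130, in Rps12, chr10:23786470-23786543: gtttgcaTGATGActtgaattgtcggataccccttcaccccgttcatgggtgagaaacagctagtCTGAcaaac
Snora3, in Rpl27a, chr7:109520120-109520251: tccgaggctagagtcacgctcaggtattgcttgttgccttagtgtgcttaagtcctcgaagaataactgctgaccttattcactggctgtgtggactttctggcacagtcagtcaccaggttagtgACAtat
RefSeq names Gm25091 as SNORD102 and Gm23130 as SNORD101. Snora3 was covered to 68.2, 47.7 and 71.2%, with replicate 2 lowest. Others with a peak in every library were Snord35a in Rpl13a, Snord72 in Rpl37, Gm22571 in Rpl4, Gm26387 in Rpl5, Gm22879 in Rpl7a, AF357399 in Rps16 and Snord15b in Rps3.

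**Figure D4:**
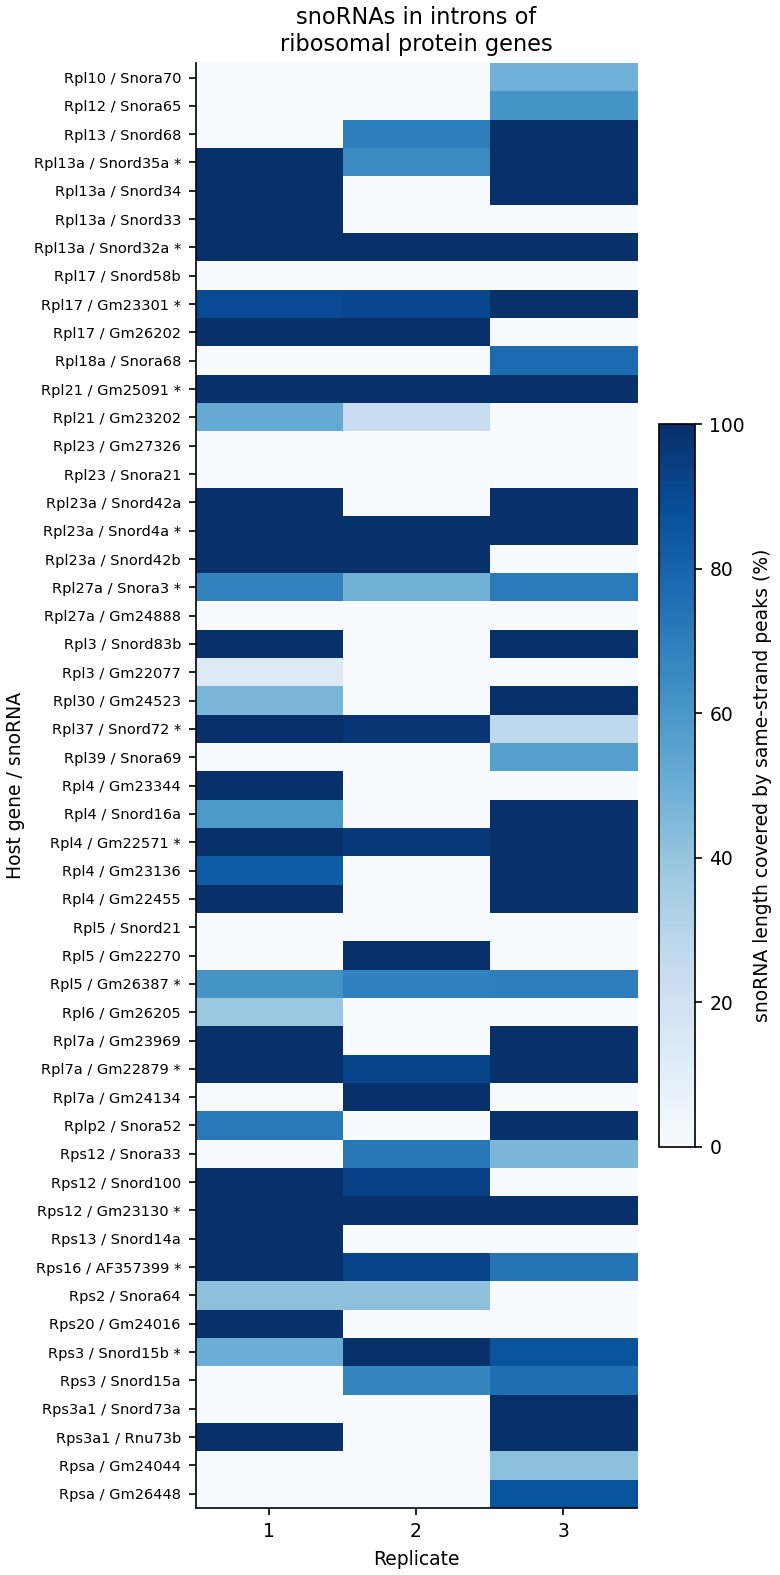
Percent of the length of 51 of the intronic snoRNAs under a same-strand peak, with a row for each snoRNA and its host, a column for each library and darker shades for more coverage; an asterisk marks a peak in every library. Snord32a, Gm25091, Snord4a and Gm23130 lie at 100% in every library.

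Outside annotated snoRNAs, introns were covered to 5.91, 4.09 and 11.4%, a mean of 7.14% ± 3.82, against 4.50% ± 0.82 over all genes. The ratio was 1.55, 0.95 and 2.11, so that it was not above 1 in every library. An intron peak in every library was found in 27 of the 82 genes with introns (32.9%), against 58.3% of all such genes and 34.4% of those of like length. Rpl11, whose protein binds Mdm2 with Rpl5 and 5S RNA, had 12, 5 and 7 intron peaks over 24210 nt of introns. These introns were covered to 4.43, 2.49 and 2.49%, a mean of 3.14% against 4.50% over all genes. Rps24, with 7889 nt of introns, had 4, 6 and 18 intron peaks, and Rpl35a, with 2921 nt, had 3, 4 and 9. Both are mutated in some patients with Diamond-Blackfan anaemia. Rpl11, Rps24 and Rpl35a were the genes with at least 3 intron peaks in every library.

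In all, 25 intronic stretches were covered in every library, in 16 genes, and 16 of them lay within 30 nt of an annotated snoRNA. The other 9 include stretches in Rpl3 and Rpl7a over which RefSeq places a C/D snoRNA (box 43 and SNORD36), shown here because the GENCODE snoRNA class leaves them out. Capitals again mark TGATGA and the last CTGA; the Rpl7a stretch holds no TGATGA, and other CTGA letters are in lower case.
Rpl3 chr15:80082835-80082950: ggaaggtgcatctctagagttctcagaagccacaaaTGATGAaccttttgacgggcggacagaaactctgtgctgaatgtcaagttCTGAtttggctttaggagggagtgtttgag
Rpl7a chr2:26912839-26912922: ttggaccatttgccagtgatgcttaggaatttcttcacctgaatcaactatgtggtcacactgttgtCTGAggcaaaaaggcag
A further stretch was an entire intron of Rpl8, 88 nt long, between exons that were also covered.

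On the opposite strand, the exons of ribosomal protein genes were covered to 1.56, 3.28 and 6.04%, against 3.30% ± 0.24 over all genes. Same-strand coverage was higher by a factor of 3.29, 2.79 and 2.18, a mean of 2.76 ± 0.558, and over all genes by 3.42 ± 1.36. With peaks of 86 to 200 nt alone the factor for ribosomal protein genes was 29.2 ± 31.2, a spread above the mean. No ribosomal protein gene had an opposite-strand exon peak in every library, against 6.61% of all genes and 0.931% of those of like length. Part of the opposite-strand coverage came from a few peaks of over 1000 nt, which numbered 3, 4 and 7. In replicate 3 single peaks of this kind covered 85.3% of the exons of Rps13 and 77.0% of those of Rplp0.

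Listed genes of translation were set beside these. An exon peak in every library was found in 19 of 27 translation factors and other mRNAs with an oligopyrimidine start (70.4%), in 15 of 20 ribosome biogenesis genes (75%) and in 29 of 78 mitochondrial ribosomal proteins (37.2%). Mean exon coverage was 25.1% ± 10.2, 12.9% ± 2.78 and 9.84% ± 5.44 in the same order, against 9.17% ± 4.01 in ribosomal protein genes. Their sequences are also less repeated, and longer: median unique windows were 60.8, 94.4 and 96.0%. Of 3 ribosomal proteins outside the symbol rule 1 had an exon peak in every library, and their pooled exon coverage was 12.6, 27.8 and 24.5% with a median of 38.6% unique windows. Among them Rack1, a protein of the small subunit, had 29.9, 64.0 and 55.2% of its exons covered at 95.1% unique windows. A start with C followed by 4 pyrimidines was found in 14 of the 65 ribosomal protein genes with a RefSeq start in the table used (21.5%), against 3.01% of 27025 genes.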

How the data were processed

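The authors deposited 1 table of peaks for the 3 libraries, with a chromosome, start, stop, strand and score for each peak. The deposited score was 60 for nearly all peaks and was not used; no read counts were used here. Per the labels and the submitters' processing notes, FastQC, cutadapt, STAR and the build mm10 were used; the peak caller and its settings are not given in the sources used here. Peaks overlapped their neighbours by at most 60 nt and the lowest start was -30, as if each had been widened by 30 nt on both sides.

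Peaks on the 21 primary chromosomes were set against GENCODE M21 exons, introns and snoRNAs by strand. Libraries were grouped by the labels, which give a single group. Coverage was the union of peak intervals, summed over the genes of a group. Uniqueness of 30-nt windows, genomic or of the selected spliced transcripts, was counted as exact matches on both strands of GRCm38. The scripts were tested on simulated data. Genes were named when they were among the 10 with the highest exonic coverage in their lowest library, among the 10 shortest without an exon peak, among the 5 with the most intron peaks in their lowest library (3 before a tie of 7) or the 5 with the highest 3′UTR coverage in it, when they hosted a snoRNA with a peak in every library, or when they were on a list (with Rplp0, Rplp1, Rplp2, Rpsa, Rpl3, Rpl7a, Rpl13a, Rpl22, Rpl22l1, Rpl41, Rps3, Rps6, Rps27 and Rps27l). Others, such as Rps19, Rps20, Rps13 and the paralogues outside that list, were named after their values were seen. Some genes and snoRNAs that the rule covers are not reported here, though they count in the totals. The members and lists were chosen with earlier results of these data known. Python 3.11.15, pandas 2.3.3, numpy 2.4.6, scipy 1.17.1, numba 0.67.0 and matplotlib 3.10.9 were used. Alternatives covered peak width, trimming, the overlap rule, exon definition, repeated sequence, equal numbers of peaks and leaving out each library.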

Additional observations from a re-analysis of the deposited data

How the results depend on the processing

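No paired analysis was possible because all replicates belong to 1 group. Of 91 values recomputed under 13 alternatives, 75 stayed within the spread between libraries or, for counts, within 1.5 times. The ratio of coding to 3′UTR coverage in the draw of equal numbers of peaks also stayed within that spread but is not counted among the 75. The 16 genes with an exon peak in every library became 7 with peaks of 86 to 200 nt, 26 with exons of all transcripts and 34 when 2 libraries sufficed; leaving out each library gave 18 to 29, the highest without replicate 1. Exon coverage (9.17%) was 4.45% with trimmed peaks, and 7.16 to 11.2% with a library left out. The ratio to all genes (0.816) was 1.00 with exons of all transcripts, 1.04 at unique positions with ribosomal protein genes masked and, in an alternative chosen after seeing the data, 0.979 with all genes masked; with a library left out it was 0.768 to 0.889. The 15 snoRNAs became 8 when 497795 peaks were drawn at random from each library, and 36 when 2 libraries sufficed, and 18 to 27 with a library left out, the highest without replicate 2. Same-strand over opposite-strand coverage (2.76) was 29.2 ± 31.2 with peaks of 86 to 200 nt, 2.02 with trimmed peaks and 2.49 to 3.04 with a library left out. The ratio of coding to 3′UTR coverage (0.720) was 1.03 in that draw and 0.451 to 0.881 with a library left out. With exons of all transcripts the exon share of peaks (33.8%) was 54.2% and the intron share (48.9%) 29.1%; with a library left out they were 25 to 39.8% and 42.8 to 58.5%. Unless a setting itself loosens or tightens the rule, the cause was not tested. For the counts of genes and snoRNAs, the share over all genes or all snoRNAs under the same alternative is not given. Without read counts, depth limits every absence of a peak.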
